A study of Mus musculus with 3 samples.

Results

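Vasoactive intestinal peptide (gene Vip), pituitary adenylate cyclase-activating polypeptide (PACAP, gene Adcyap1) and their receptors Vipr1, Vipr2 and Adcyap1r1 were followed in single cells of the mouse heart atria. These 5 genes were taken by symbol from 30406 genes listed in all 3 libraries. The study isolated cells of the intrinsic cardiac nervous system, the neurons of ganglia on the atria, and asked how ganglia of different atrial regions compare. Sorted fluorescent cells gave 1 library of the anterior atrial section (age 3 months), 1 of the posterior section (4 months) and 1 of pooled, mixed ganglia (2 months). Every library carried the genotype Baf53b-cre;lox-GFP, in which Cre under the promoter of a neuronal chromatin subunit (Baf53b, gene Actl6b) switches on a green fluorescent protein, and every library held cells of female and male mice. The labels name 10 mice for the isolation and do not tie cells to animals, so each region is 1 library of pooled animals. The mixed library's label names no section, and it was taken as mixed because the other libraries are named for theirs.

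VIP and PACAP are related peptides of the secretin family that are cut from precursor proteins, stored in dense-core vesicles and released by neurons. VIP acts mainly through the receptors encoded by Vipr1 and Vipr2, both of which also bind PACAP with high affinity, while the receptor encoded by Adcyap1r1 (PAC1) prefers PACAP. All of these receptors couple to the stimulatory G protein Gs and raise cyclic AMP, and PAC1 also couples to phospholipase C. In the heart VIP is known as a parasympathetic co-transmitter that dilates coronary vessels and speeds the heart, and PACAP is known to excite intrinsic cardiac neurons of the guinea pig.

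In GENCODE vM21 on GRCm38 (mm10) all 5 are protein-coding genes on the plus strand. Vip lies at chr10:5639218-5647617, Adcyap1 at chr17:93199017-93206537, Vipr1 at chr9:121642716-121672954, Vipr2 at chr12:116077726-116146261 and Adcyap1r1 at chr6:55451978-55501451. The promoters of the peptide genes are printed because both hold TGACGTC, which is 7 of the 8 letters of the cAMP response element TGACGTCA, a site bound by CREB-family factors. The sequences are the 250 bases before the annotated start from RefSeq (GRCm38.p6, plus strand, 5′ to 3′), with TGACGTC in capitals. They cover chr10:5638968-5639217 for Vip and chr17:93198767-93199016 for Adcyap1.
Vip: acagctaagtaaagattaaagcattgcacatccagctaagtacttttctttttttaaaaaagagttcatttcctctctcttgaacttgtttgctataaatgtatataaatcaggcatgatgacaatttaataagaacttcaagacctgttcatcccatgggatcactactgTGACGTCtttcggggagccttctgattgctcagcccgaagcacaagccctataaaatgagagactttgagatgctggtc
Adcyap1: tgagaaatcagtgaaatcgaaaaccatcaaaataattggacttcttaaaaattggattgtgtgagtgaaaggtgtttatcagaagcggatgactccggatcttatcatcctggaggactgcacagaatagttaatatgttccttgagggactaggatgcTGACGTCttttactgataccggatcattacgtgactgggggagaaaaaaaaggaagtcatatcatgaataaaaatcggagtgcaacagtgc
The match begins 79 bases before the start in Vip and 91 bases before it in Adcyap1, whose second annotated start lies further downstream. Both strands of windows of 300 bases (250 before and 50 after each start) were searched, and TGACGTC or its reverse complement GACGTCA stood in 3.21% of 32851 RefSeq promoters. All 5 genes had a promoter in the table. The windows of Vipr1, Vipr2 and Adcyap1r1 held no match, and the full 8-letter element, which stood in 1.79% of promoters, was in none of the 5 genes.

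The libraries held 2256 (anterior), 3276 (posterior) and 2829 (mixed) barcodes and 55329380, 86391988 and 119825307 unique molecular identifiers (UMIs), each counting 1 captured RNA molecule. At most 3 barcodes were shared between any pair of libraries. Barcodes with at least 10000 UMIs and with Snap25, Prph and Stmn2 detected were taken as neurons, which gave 1314 anterior, 1443 posterior and 1971 mixed neurons with median depths of 39858.5, 57249 and 57355 UMIs. Among neuron markers that the gate did not use, Uchl1, Elavl4 and Tubb3 were each detected in at least 96.6% of neurons of every library, and Actl6b in 86.3% to 94.0%. With 1 library per region, differences between regions have no replicate check. Intervals below are exact 95% intervals that cover counting error only, and levels are UMIs of a gene per 10000 UMIs summed over the cells named.

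Vip was the transcript of a small set of neurons. At least 1 Vip UMI was found in 10.5% of anterior, 10.2% of posterior and 4.72% of mixed neurons. Neurons with at least 1 Vip UMI per 10000 are called Vip-rich here. They numbered 76 of 1314 in the anterior library (5.78%, interval 4.58 to 7.19), 49 of 1443 in the posterior library (3.396%, 2.52 to 4.47) and 49 of 1971 in the mixed library (2.49%, 1.85 to 3.27). The Vip-rich neurons held 98.22%, 98.02% and 97.3% of all neuronal Vip UMIs in those libraries. The remaining 62 of 138 anterior, 98 of 147 posterior and 44 of 93 mixed neurons with a Vip UMI held only a trace, with a single UMI in 52, 80 and 32 of them.

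Among Vip-rich neurons the level spread widely. The median was 8.48 UMIs per 10000 in the anterior library, 13.4 in the posterior and 8.22 in the mixed, and the highest neuron reached 109.9, 230.8 and 64.67. The 10 highest neurons alone carried 50.3%, 66.2% and 54.6% of each library's neuronal Vip UMIs. The limit did not fall in a gap of the ranking: 15, 10 and 9 neurons lay just under it, between 0.5 and 1 UMI per 10000, and 9, 9 and 8 lay just over it, between 1 and 2.

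**Figure D1:**
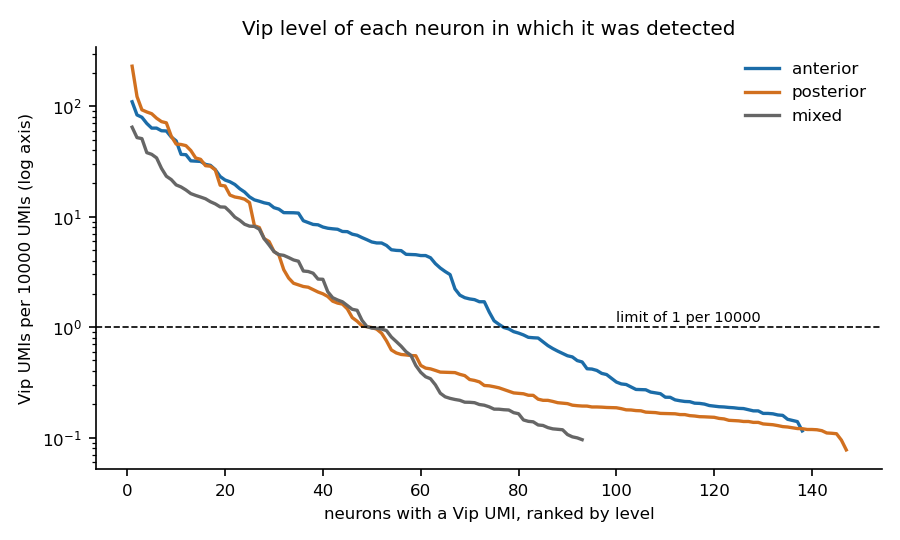
Vip UMIs per 10000 UMIs (log axis) of every neuron with a Vip UMI, ranked from the highest within each library; the dashed line marks the limit of 1 per 10000. The anterior curve stays above the limit for 76 neurons and the posterior and mixed curves for 49 each, and the posterior curve starts highest at 230.8.

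Summed over all neurons, Vip stood at 0.868 UMIs per 10000 in the anterior library, 0.848 in the posterior and 0.252 in the mixed. The anterior level was 1.02 times the posterior (0.986 to 1.06), although the anterior library had the higher share of Vip-rich neurons and the posterior library the higher median among them. The anterior level was 3.45 times the mixed (3.29 to 3.62) and the posterior level 3.37 times the mixed (3.23 to 3.52). These intervals count UMIs as independent and leave out the spread between neurons. They are too narrow for Vip, since 10 neurons carried 50.3% to 66.2% of each library's neuronal UMIs of it. Thinning each neuron to 10000 UMIs left a Vip UMI in 7.23% of anterior, 4.64% of posterior and 2.84% of mixed neurons, so the order of the libraries was the same at equal depth. Region, age and library cannot be told apart in these values.

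Nos1, which encodes the neuronal nitric oxide synthase, was the gene whose level across neurons was most like that of Vip. Its correlation with Vip, on log(1 + UMIs per 10000) across neurons within a library, was 0.824 for anterior, 0.644 for posterior and 0.674 for mixed neurons. Of 13397 genes ranked by the lowest of their 3 values, C1ql2 (0.605), Galr1 (0.504), Rtp1 (0.497), Mal2 (0.484), Bnc2 (0.481), Cited1 (0.472) and Fgf13 (0.407) followed. C1ql2 encodes a C1q-like synaptic protein, Galr1 a galanin receptor, and Fgf13 a modulator of voltage-gated sodium channels. These correlations describe cells that share a library and its depth.

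Not every Vip-rich neuron held Nos1. At least 1 Nos1 UMI per 10000 was found in 61 of 76 anterior (80.3%), 23 of 49 posterior (46.9%) and 23 of 49 mixed (46.9%) Vip-rich neurons. Vip-rich neurons with Nos1 had a median Vip level of 10.9, 39.8 and 15.1 UMIs per 10000, against 3.43, 2.32 and 3.21 in Vip-rich neurons without it. The Vip-rich neurons with Nos1 thus had the higher median in each library, although some without Nos1 overlapped them. In the other direction, 23 anterior, 38 posterior and 32 mixed neurons reached 1 Nos1 UMI per 10000 without being Vip-rich.

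**Figure D2:**
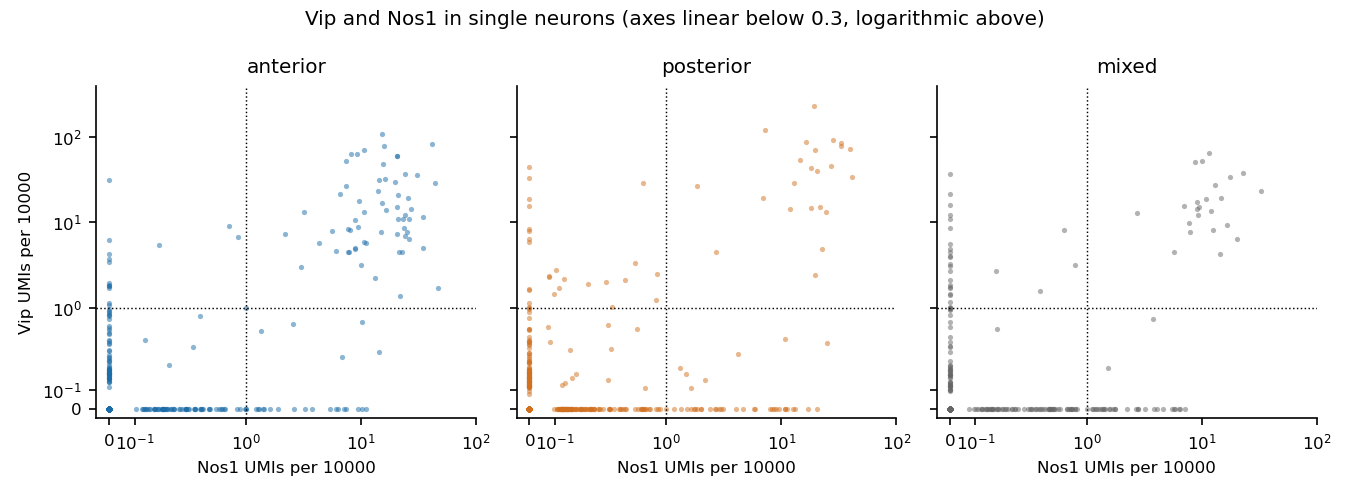
Vip (vertical) and Nos1 (horizontal) UMIs per 10000 in every neuron, by library, on axes that are linear below 0.3 and logarithmic above; dotted lines mark 1 per 10000. The cloud at the upper right holds the 61, 23 and 23 neurons that pass both limits, and other Vip-rich neurons lie along the left edge with no or little Nos1.

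Vip-rich neurons were then set against all other neurons, with counts summed per library and tested with edgeR's quasi-likelihood test, library as a block and Benjamini-Hochberg adjustment over all 13498 genes tested. Vip itself defined the sets and is described only: its level was 17.8, 22.1 and 12.4 UMIs per 10000 in anterior, posterior and mixed Vip-rich neurons, against 0.0162, 0.0174 and 0.00694 in the other neurons. Of the other members, Adcyap1 and Adcyap1r1 passed the filter on low counts and neither was called, where 4.87% of all genes tested were called (424 or 3.14% higher and 234 or 1.73% lower, Vip among the higher). Vipr1 and Vipr2 did not pass the filter. At an unadjusted p under 0.05, 1 of the 2 tested members passed (Adcyap1), and DESeq2 called 0.

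Adcyap1r1, the PACAP receptor, stood at 0.590, 0.548 and 0.357 UMIs per 10000 in anterior, posterior and mixed Vip-rich neurons, against 0.571, 0.556 and 0.308 in other neurons. Its log2 fold change was 0.07 (SE 0.14, adjusted p = 0.914, edgeR). The levels overlapped within each library: the ratio of Vip-rich to other neurons was 1.03 (0.869 to 1.22) for anterior, 0.986 (0.839 to 1.15) for posterior and 1.16 (0.918 to 1.44) for mixed neurons. The intervals held both small rises and small falls, so a difference in the PACAP receptor transcript was not detectable, and equal levels were not shown. Vip-rich neurons with Nos1 stood at 0.550, 0.867 and 0.434, against 0.711, 0.404 and 0.301 in Vip-rich neurons without it, so the order of these sets differed between libraries.

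Adcyap1 held 2, 2 and 7 UMIs in Vip-rich neurons of the anterior, posterior and mixed libraries, against 2, 50 and 28 UMIs in the far more numerous other neurons. Per 10000 UMIs these were 0.00803, 0.00661 and 0.0304 in Vip-rich neurons and 0.000405, 0.00645 and 0.00246 in other neurons. The log2 fold change was 2.33 (SE 0.78, adjusted p = 0.104, edgeR) and depended on the libraries used. Without the posterior library it was 3.65 (adjusted p = 7.12e-05), without the mixed library 1.26 (adjusted p = 0.802), and without the anterior library 2.05 (adjusted p = 0.251). It passed the threshold with a Vip limit of 5 per 10000 (2.84, adjusted p = 0.0442) and without neurons carrying 3 or more glial markers (2.77, adjusted p = 0.0422), and over all alternatives its adjusted p ranged from 7.12e-05 to 1.0.

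The genes that store and process peptides were higher in Vip-rich neurons in part: 5 of 11 tested members of that list rose and none fell, with a median log2 fold change of 0.45 against -0.02 over all genes, where 3.14% of genes were called higher. Scg2, which encodes a granin of dense-core vesicles, stood at 6.30, 4.52 and 5.76 UMIs per 10000 in anterior, posterior and mixed Vip-rich neurons, against 0.804, 0.674 and 1.15 in other neurons (log2 fold change 2.68, SE 0.17, adjusted p = 8.87e-11). Cadps2, a priming factor for dense-core vesicles, rose by 2.27 (SE 0.56, adjusted p = 0.014), Chgb, another granin, by 1.06 (SE 0.16, adjusted p = 8.22e-05) and Pcsk2, a prohormone convertase, by 0.92 (SE 0.17, adjusted p = 0.000733). Among neurons under 1 Nos1 UMI per 10000, the rise of Chgb and Pcsk2 was not seen, at -0.39 and -0.11. That comparison had 15 anterior, 26 posterior and 26 mixed Vip-rich neurons, and its changes of sign are not read as opposite effects.

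Of 13 tested transmitter genes, 3 rose and 5 fell in Vip-rich neurons, where 3.14% of all genes were called higher and 1.73% lower. Nos1 stood at 13.0, 6.32 and 4.60 UMIs per 10000 in anterior, posterior and mixed Vip-rich neurons, against 0.0960, 0.185 and 0.0505 in other neurons, a log2 fold change of 6.21 (SE 0.27, adjusted p = 1.19e-13). Tac1, the precursor of substance P, stood at 2.06, 0.542 and 1.18 in Vip-rich neurons against 0.0577, 0.115 and 0.120 in other neurons (3.55, SE 0.30, adjusted p = 1.17e-08). It had a UMI in 20 of 76 anterior, 14 of 49 posterior and 14 of 49 mixed Vip-rich neurons, and the 5 highest neurons held 91.1%, 82.9% and 81.9% of those UMIs, so a few cells carried it. In the anterior library 452 of its 514 UMIs lay in the 15 Vip-rich neurons without Nos1. The catecholamine enzymes Ddc and Th fell by 1.69 (SE 0.22, adjusted p = 1.35e-05) and 1.46 (SE 0.26, adjusted p = 0.000674), of which DESeq2 called Ddc only.

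Genes downstream of the receptors were read against a background of 4.87% of all genes called in Vip-rich neurons. Of 11 tested G proteins and adenylyl cyclases, 1 rose, the cyclase gene Adcy7 (log2 fold change 1.30, SE 0.30, adjusted p = 0.00857). None of 14 tested cAMP effectors was called by edgeR or DESeq2, and none had an unadjusted p under 0.05. Of 11 tested cAMP phosphodiesterases, Pde3a rose by 0.85 (SE 0.18, adjusted p = 0.00373, edgeR) and Pde1b fell by 0.91 (SE 0.22, adjusted p = 0.0149, edgeR, not called by DESeq2). Pde3a changed sign (-0.49) among neurons low in Nos1. Ramp1, which encodes a partner protein of receptors of this class, was the 1 called of 2 tested, at 0.78 (SE 0.16, adjusted p = 0.00329). The value of Ramp1 also changed sign among neurons low in Nos1, to -0.81. Of 4 tested peptide-degrading enzymes, Ece1 rose by 0.77 (SE 0.17, adjusted p = 0.00477). Of 12 other secretin-family ligand and receptor genes, 2 passed the filter and neither was called by edgeR or DESeq2, with 1 at an unadjusted p under 0.05, Pthlh.

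**Figure D3:**
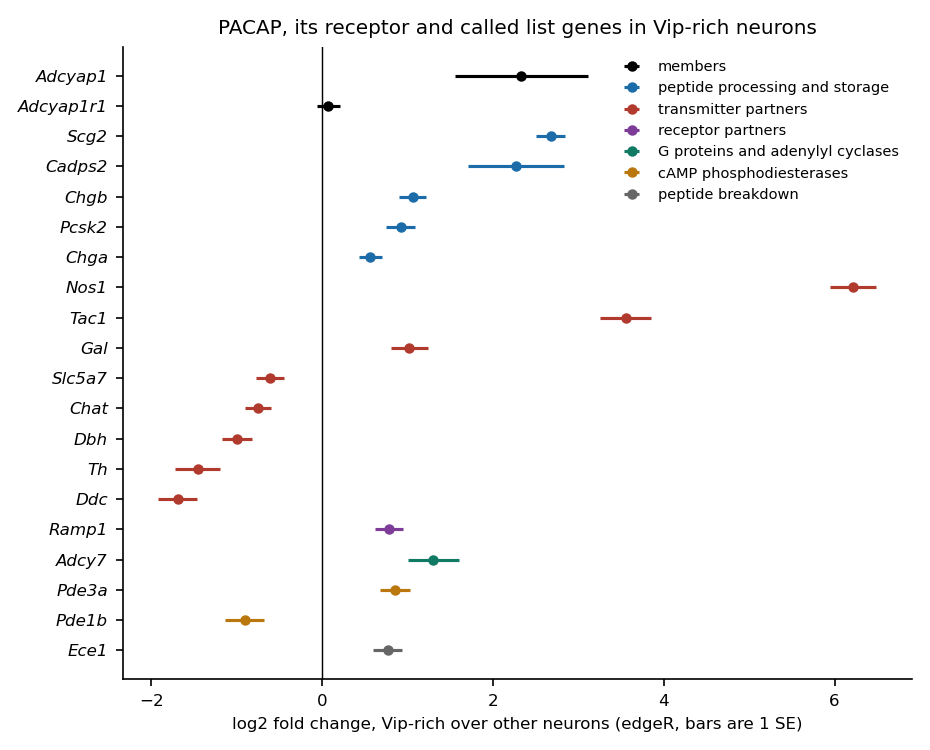
Log2 fold change of Vip-rich over other neurons with 1 SE (edgeR, 3 libraries) for Adcyap1, Adcyap1r1 and every called gene of the pathway and transmitter lists, coloured by list. Adcyap1r1 sits at 0.07, while Nos1 (6.21), Tac1 (3.55) and Scg2 (2.68) lie furthest to the right and Ddc (-1.69) furthest to the left.

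Across all genes, the 10 largest increases among those with a mean level over the 3 libraries of at least 0.2 UMIs per 10000 in Vip-rich neurons were in Sp5, Mal2, Alk, Galr1, Nos1, Slc18a2, C1ql2, Rtp1, Pcp4l1 and Cited1, with log2 fold changes of 7.04 (Sp5) to 4.44 (Cited1). Single libraries could lie under that mean, as Sp5 did in the posterior (0.0859) and Alk in the mixed (0.0304). Sp5 encodes a zinc-finger transcription factor, Alk a receptor tyrosine kinase and Slc18a2 the vesicular monoamine transporter. Galr1 stood at 0.795, 0.218 and 0.557 UMIs per 10000 in anterior, posterior and mixed Vip-rich neurons, against 0.0115, 0.00439 and 0.00343 in other neurons. Slc18a2 stood at 0.377, 0.317 and 0.257 in Vip-rich neurons, against 0.00142, 0.0167 and 0.00158 in other neurons. Of the markers of chromaffin or small intensely fluorescent cells, 3 of 8 rose (Slc18a2, Chga, Chgb) and 3 fell (Th, Ddc, Dbh), and Pnmt, the adrenaline-forming enzyme, had 0, 1 and 0 UMIs in Vip-rich neurons of the anterior, posterior and mixed libraries.

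Among genes with a mean level of at least 0.2 UMIs per 10000 in other neurons, the 5 largest decreases in Vip-rich neurons were in Mucl1, Cd74, Ddc, Tbx20 and Tenm4. Tbx20, a T-box transcription factor, stood at 0.269, 0.244 and 0.274 UMIs per 10000 in anterior, posterior and mixed Vip-rich neurons, against 0.752, 0.927 and 0.745 in other neurons (log2 fold change -1.62, SE 0.15, adjusted p = 4.69e-08). Mucl1 (-4.58) reached 0.00223, 0.358 and 0.471 UMIs per 10000 in other neurons of the 3 libraries, and Cd74 (-4.07) reached 0.0101, 0.675 and 0.00475, so neither was spread evenly over them. Within neurons of at least 4 Npy UMIs per 10000, Mucl1 changed sign to 0.48 and Cd74 was not called (-0.33). Without neurons holding 3 or more markers of fibroblasts, macrophages, epithelial or mesothelial cells, Cd74 was -2.02 (adjusted p = 0.00639, edgeR). Within neurons under 1 Nos1 UMI per 10000, 64 genes were higher and 22 lower in Vip-rich neurons, among them Mal2 (4.73), Galr1 (4.27), Tac1 (3.68), Pcp4l1 (2.93) and C1ql2 (2.61) as still higher. Below that mean, the macrophage markers Lyz2 (-4.14, adjusted p = 2.32e-07) and C1qb (-3.63, adjusted p = 0.00132) also fell (edgeR). The macrophage list summed to 0, 0.0562 and 0.0087 UMIs per 10000 in anterior, posterior and mixed Vip-rich neurons, against 0.0119, 0.774 and 0.0126 in other neurons, with all 6 markers at 0 in anterior Vip-rich neurons. Of the 6 fibroblast markers Col3a1 fell (-1.13, adjusted p = 0.0445, edgeR), and that list summed to 0.104, 0.588 and 0.0783 in Vip-rich neurons, against 0.192, 0.722 and 0.0877 in other neurons. Of 6 cardiomyocyte markers, 4 rose in Vip-rich neurons (Tnnt2, Nppa, Myl7, Myh6). Their list summed to 0.911, 3.46 and 0.226 UMIs per 10000 in anterior, posterior and mixed Vip-rich neurons, against 0.564, 0.418 and 0.0965 in other neurons, with Nppa and Actc1 at 0 in mixed Vip-rich neurons, and the part of these lists in the results above was not tested. The glial list summed to 2.30 to 3.78 UMIs per 10000 in Vip-rich neurons and 2.11 to 4.41 in other neurons, and none of its 6 markers was called.

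Neurons were also split by Npy, the gene of neuropeptide Y, and 123 anterior (9.36%), 510 posterior (35.3%) and 348 mixed (17.7%) neurons had under 4 Npy UMIs per 10000. These Npy-low neurons were set against the Npy-high rest with the same test, in which 26.5% of 13885 genes tested were called (1741 or 12.5% higher, 1932 or 13.9% lower). Of the 2 members that passed the filter, Adcyap1r1 was called lower and Vip was not called, where 13.9% of genes were called lower. Adcyap1, Vipr1 and Vipr2 did not pass the filter.

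Adcyap1r1 stood at 0.513, 0.417 and 0.262 UMIs per 10000 in Npy-low neurons of the anterior, posterior and mixed libraries, against 0.578, 0.626 and 0.319 in Npy-high neurons. It was lower in 3 of 3 libraries, with a log2 fold change of -0.41 (SE 0.07, adjusted p = 0.00281, edgeR). The ratio of Npy-low to Npy-high was 0.887 (0.776 to 1.01) for anterior, 0.667 (0.623 to 0.714) for posterior and 0.819 (0.746 to 0.899) for mixed neurons, with the lowest ratio in the posterior library, and the difference between libraries was not tested. Without the posterior library the log2 fold change was -0.27 (adjusted p = 0.0268), and without the library block it was -0.39 (adjusted p = 0.745). Markers of other cells also differed between these sets. Of 6 glial markers 3 rose, Fabp7 and S100b among them, and the list summed to 2.86, 2.79 and 4.76 UMIs per 10000 in Npy-low neurons against 2.27, 1.77 and 4.32 in Npy-high neurons. Of 6 macrophage markers 1 rose (Lyz2), and the list summed to 0, 2.14 and 0.0124 against 0.0126, 0.0426 and 0.0125, with all 6 at 0 in anterior Npy-low neurons. Of 6 fibroblast markers 2 rose (Col3a1, Dcn), and the list summed to 0.127, 1.49 and 0.144 in Npy-low neurons against 0.194, 0.328 and 0.0755 in Npy-high neurons. Leaving out neurons with 3 or more glial markers gave -0.40 (adjusted p = 0.00218, edgeR). Leaving out those with 3 or more markers of fibroblasts, macrophages, epithelial or mesothelial cells, a choice made after seeing the data, gave -0.39 (adjusted p = 0.000951, edgeR), with a posterior ratio of 0.669 (0.624 to 0.716).

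Vip was unevenly placed between these sets. In the posterior library it stood at 0.0803 UMIs per 10000 in Npy-low neurons, against 1.24 in Npy-high neurons. In the anterior library it was 0.728 against 0.883 in the same order, and in the mixed library 0.247 against 0.253. The log2 fold change was -1.37 (SE 0.58, adjusted p = 0.114, edgeR), with an unadjusted p of 0.0402, and it passed the threshold without the mixed library (-2.20, adjusted p = 0.000104) but was -0.19 (adjusted p = 0.143) without the posterior. A single neuron held 191 of the 355 anterior, 90 of the 217 posterior and 250 of the 500 mixed Vip UMIs of Npy-low neurons. Npy-low neurons made up 9.21% of anterior, 10.2% of posterior and 14.3% of mixed Vip-rich neurons, against 9.36%, 35.3% and 17.7% of all neurons.

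Adcyap1 was found mostly in Npy-low neurons. It gave 4 UMIs in 4 neurons of the anterior library, 52 UMIs in 36 neurons of the posterior and 35 UMIs in 23 neurons of the mixed, and 46 of these 63 neurons held a single UMI. Npy-low neurons held 0, 45 and 29 of the UMIs in the anterior, posterior and mixed libraries, against 4, 7 and 6 in Npy-high neurons. The ratio of the levels was 12.7 (5.69 to 33.4) for posterior and 22.9 (9.35 to 67.5) for mixed neurons, while the anterior library went the other way on 4 UMIs. With all libraries the gene did not pass the filter on low counts, and no test is given. Markers of other cells differed between the same sets. Of 6 epithelial markers 3 rose (Krt8, Krt18, Epcam), and that list summed to 0.0041, 0.203 and 0.109 UMIs per 10000 in Npy-low neurons against 0.00553, 0.0267 and 0.00563 in Npy-high neurons, with Krt8, Krt18 and Epcam at 0 in anterior Npy-low neurons. Of 6 mesothelial markers 1 passed the filter and rose (Wt1), and that list summed to 0.00615, 0.139 and 0.13 in Npy-low neurons against 0.00213, 0.00299 and 0.00073 in Npy-high neurons, with Upk3b, Lrrn4 and Msln at 0 in anterior Npy-low neurons. The macrophage and fibroblast sums of these sets are given above with Adcyap1r1. Of the 63 neurons with an Adcyap1 UMI, 17 (27.0%) held 3 or more glial markers, against 18.9% of Npy-low and 17.6% of all neurons. In the posterior library these shares were 30.6%, 16.7% and 13.2%, and in the mixed library 21.7%, 23.6% and 23.7%. In the anterior library 1 of 4 did. They were not tested. Of the same 63 neurons, 0 held 3 or more epithelial, mesothelial or fibroblast markers and 1 held 3 or more macrophage markers. Without neurons that did, Npy-low neurons held 0, 43 and 29 Adcyap1 UMIs in the anterior, posterior and mixed libraries against 4, 7 and 6 in Npy-high neurons, with ratios of 12.3 (5.48 to 32.4) for posterior and 22.9 (9.36 to 67.6) for mixed neurons.

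**Figure D4:**
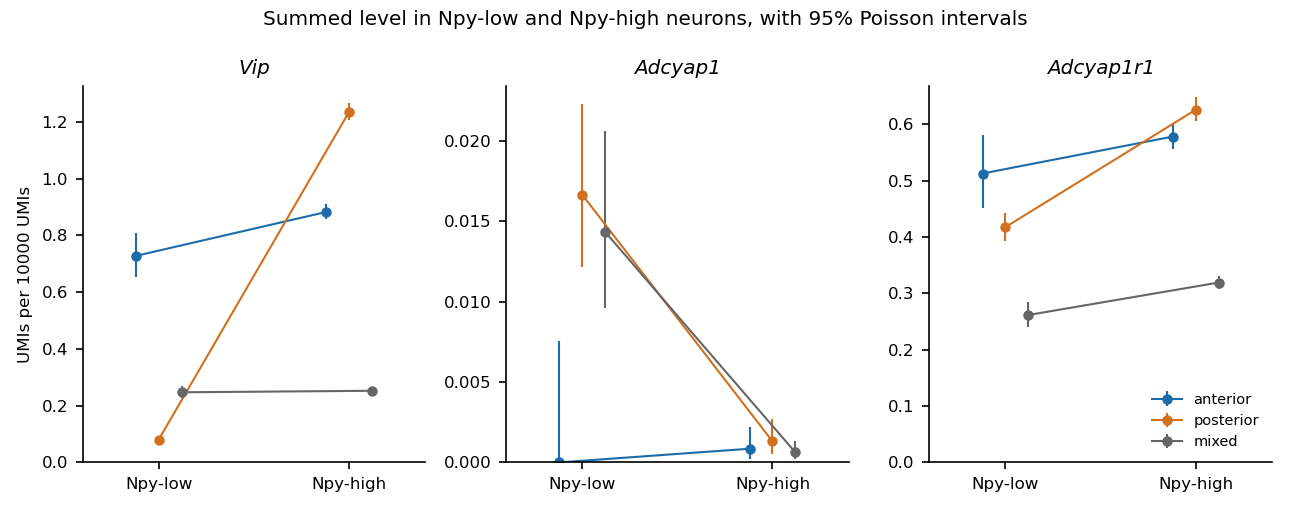
UMIs per 10000 of Vip, Adcyap1 and Adcyap1r1 summed over Npy-low (left) and Npy-high (right) neurons of each library, with exact 95% Poisson intervals; lines join the sets of 1 library. Adcyap1r1 is lower in Npy-low neurons of every library, Vip is at 0.0803 in posterior Npy-low neurons, and Adcyap1 is higher in posterior and mixed Npy-low neurons but at 0 in anterior ones.

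The 63 neurons with an Adcyap1 UMI are set beside Npy-low neurons and all neurons. Of them 49 (77.8%) were Npy-low, against 20.7% of all neurons. The libraries contributed unequally: 36 of the 63 were posterior, against 1443 of all 4728 neurons. By library, 0 of 4 anterior, 83.3% of posterior and 82.6% of mixed Adcyap1 neurons were Npy-low, against 9.36%, 35.3% and 17.7% of all neurons. At least 1 UMI per 10000 of Ddah1, which encodes an enzyme that breaks down inhibitors of nitric oxide synthases, was held by 54 (85.7%), against 88.9% of the 981 Npy-low neurons and 24.1% of all 4728 neurons. A UMI of the neuropeptide gene Gal was found in 43 (68.3%), against 65.7% of Npy-low and 28.6% of all neurons. Dbh, the noradrenaline-forming enzyme, was found in 49 (77.8%), against 85.5% and 58.7% in the same order, and Chat, the acetylcholine-forming enzyme, in 44 (69.8%), against 74.0% and 75.8%. The receptor transcript Adcyap1r1 was found in 49 (77.8%), against 76.0% and 78.8%. Vip-rich neurons numbered 7 (11.1%), against 1.94% of Npy-low and 3.68% of all neurons. By library they were 2 of 4 anterior, 2.78% of posterior and 17.4% of mixed Adcyap1 neurons, against 5.78%, 3.4% and 2.49% of all neurons. These shares are described and not tested, at median depths of 57969 UMIs in the Adcyap1 neurons, 54458 in Npy-low and 51572 in all neurons. The highest level was 1.79 UMIs per 10000, in a mixed neuron with 9 UMIs. In the anterior library Adcyap1 stood at 0.000771 UMIs per 10000 over all neurons, in the posterior at 0.00646 and in the mixed at 0.003015, and the anterior level was 0.119 times the posterior (0.0314 to 0.324). With 4 UMIs anterior, likeness to other genes could not be ranked.

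The pathway lists in Npy-low neurons stand beside a background of 26.5% of genes called. Of 11 tested G proteins and cyclases 4 rose and 5 fell, of which Gnas, the Gs protein that these receptors activate, stood at 48.8, 44.6 and 70.0 UMIs per 10000 in anterior, posterior and mixed Npy-low neurons, against 79.9, 77.4 and 108.7 in Npy-high neurons (log2 fold change -0.75, SE 0.05, adjusted p = 2.58e-06). The cyclase genes with the largest changes were Adcy8 (1.01), Adcy7 (-0.91) and Adcy5 (0.56), of which DESeq2 did not call Adcy5. Of 12 tested phosphodiesterases 5 rose and 3 fell, led by Pde1a, a calcium-activated enzyme, at 0.222, 0.216 and 0.238 in Npy-low neurons against 0.00830, 0.0103 and 0.00970 in Npy-high neurons (4.53, SE 0.11, adjusted p = 8.61e-09). Pde3a fell by 2.21 and Pde4b by 1.24, and Pde8b rose by 1.93.

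Of 14 tested cAMP effectors, Crem, a cAMP-responsive transcription factor gene, rose by 0.88 (SE 0.06, adjusted p = 3.52e-06), Prkacb, a catalytic subunit of protein kinase A, rose by 0.62 (SE 0.04, adjusted p = 5.93e-06), and Rapgef4, which encodes the cAMP sensor Epac2, fell by 1.03 (SE 0.12, adjusted p = 0.000156). Of 11 tested peptide processing genes 1 rose and 5 fell, led by Scg2 at 0.195, 0.170 and 0.192 UMIs per 10000 in anterior, posterior and mixed Npy-low neurons, against 1.16, 1.15 and 1.46 in Npy-high neurons (-2.82, SE 0.07, adjusted p = 8.97e-09). Cadps2 fell by 2.01, Pcsk2 by 1.37 and Chga by 0.77. DESeq2 did not call Cadps2, which stood at 0, 0.00259 and 0.000494 UMIs per 10000 in Npy-low neurons against 0.00745, 0.00598 and 0.00438 in Npy-high neurons. Of 4 tested peptide-degrading genes 3 fell, Prep, Nln and Thop1, by 0.58, 0.48 and 0.37. Ramp1 rose by 2.13 (SE 0.08, adjusted p = 1.19e-07), and Pthlh, the 1 called of 2 tested secretin-family genes, fell by 1.67 (SE 0.30, adjusted p = 0.00269). Of 14 tested transmitter genes 6 rose and 6 fell, with Nos1 at -4.22, Ddah1 at 3.44, Cartpt at -2.88 and Gal at 2.72.

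Adcyap1r1 was spread over most neurons. It was detected in 75.7% of anterior, 84.3% of posterior and 76.8% of mixed neurons, with at most 24, 21 and 13 UMIs in a neuron. Its level was 0.572 UMIs per 10000 in the anterior library, 0.556 in the posterior and 0.309 in the mixed. The anterior level was 1.03 times the posterior (0.982 to 1.08) and 1.85 times the mixed (1.76 to 1.94), and the posterior level was 1.80 times the mixed (1.72 to 1.88). After each neuron was thinned to 10000 UMIs it had a UMI in 39.2%, 38.8% and 27.6%. Its UMIs were less even than a single shared level would give: 60.8%, 61.2% and 72.4% of thinned neurons had none, where a Poisson count of the same mean gives 54.3%, 54.7% and 71.2%. Among the genes most like Adcyap1r1 across neurons, by the lowest correlation of the 3 libraries, were Lnpep (0.401), Ret (0.400), Kif1b (0.397) and Enah (0.388), while its correlation with Vip was -0.005, 0.053 and 0.053 in the anterior, posterior and mixed libraries. Ret encodes the signalling receptor of the GDNF family of neurotrophic factors and Kif1b a kinesin motor of axonal transport.

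The VIP receptor genes were all but missing from these neurons. Vipr1 gave 0 UMIs in 4728 neurons, which at 3 UMIs allows up to 0.000121 UMIs per 10000 over the 3 libraries. Vipr2 gave 1 UMI, in a posterior neuron. Over 248491293 neuronal UMIs, the depth was not the limit for levels near that of Adcyap1r1, which gave 11034 UMIs in the same cells.

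Outside the neuron gate, barcodes were assigned to a class when at least 3 of 6 fixed markers of it were detected, more than of any other class, with at most 1 of Snap25, Prph and Stmn2. Summed over the libraries this gave 236 satellite glia or Schwann cells, 208 fibroblasts, 78 smooth muscle cells or pericytes, 54 macrophages, 44 endothelial cells, 36 cardiomyocytes and smaller classes. Median depths by library were 2351 to 3653 UMIs in glia, 4455.5 to 5633 in fibroblasts and 4531.5 to 7695 in macrophages, far below those of neurons. The sort was for neuronal fluorescence, so these cells are what passed it and not a sample of the atria.

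Vip had 1 UMI each in glia (1 of 236 cells, 0.424%) and macrophages (1 of 54, 1.85%), and 0 UMIs in the other classes, against a Vip UMI in 7.995% of neurons. The libraries contributed unequally to the classes, so each class was set against the neuronal level at its own mix of libraries, and against a floor of 3 UMIs over the libraries. Vip was then at least 21.5-fold lower in fibroblasts than the 0.632 UMIs per 10000 of neurons at that mix. For smooth muscle cells or pericytes the neuronal level, 0.416, was 5.47 times the floor, and for cardiomyocytes 4.02 times. It was 3.12 times the floor for epithelial cells, 2.96 times for endothelial cells, 1.83 times for lymphocytes and 1.34 times for mesothelial cells. The floor counts UMIs as independent. Vip-rich neurons, however, were 2.49% to 5.78% of a library's neurons and held at least 97.3% of its neuronal Vip UMIs. Classes of 18 to 78 cells could therefore hold no Vip-rich cell even at the neurons' share, and a lower Vip level in them was not shown. Adcyap1 had 0 UMIs in every class outside neurons, but its level in neurons lay under the floors of those classes, so a lower level there was not detectable at this depth. With up to 2 of the 3 neuron markers allowed, a gate chosen after seeing the data, 56 epithelial cells held 4 Adcyap1 UMIs in 4 cells, all of the posterior library. This is 0.0871 UMIs per 10000 (0.0237 to 0.223), against 0.00366 in neurons of all 3 libraries and 0.00646 in posterior neurons. The 56 cells also held 4 Vip UMIs in 4 cells, and whether these were the cells with Adcyap1 was not examined.

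Adcyap1r1 was lower in each of 6 tested classes than in neurons (edgeR, a single fit of class sums with library as a block). Shares of all genes called lower were 29.6% for fibroblasts, 29.7% for glia, 22.0% for smooth muscle cells or pericytes, 26.2% for endothelial cells, 27.8% for macrophages and 14.0% for cardiomyocytes. Fibroblasts held 5, 3 and 3 UMIs in the anterior, posterior and mixed libraries, or 0.199, 0.0768 and 0.0791 UMIs per 10000, against 0.572, 0.556 and 0.309 in neurons (log2 fold change -2.19, SE 0.47, adjusted p = 0.000719). Glia held 6, 1 and 0 UMIs (-2.81, SE 0.53, adjusted p = 0.000239). Smooth muscle cells or pericytes and endothelial cells held 1 UMI each (adjusted p = 0.00503 and 0.0147), and macrophages and cardiomyocytes none (adjusted p = 0.00102 and 0.0218). Without the anterior library the adjusted p was 0.105 for smooth muscle cells or pericytes, 0.0545 for endothelial cells and 0.463 for cardiomyocytes.

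Ordered by level over the libraries, Adcyap1r1 stood at 0.444 UMIs per 10000 in neurons, 0.181 (0.0219 to 0.653) in 18 mesothelial cells with 2 UMIs, 0.108 (0.0538 to 0.193) in fibroblasts, 0.0841 (0.0338 to 0.173) in glia, 0.0632 (0.0016 to 0.352) in endothelial cells and 0.0254 (0.000642 to 0.141) in smooth muscle cells or pericytes. Macrophages, cardiomyocytes, lymphocytes and epithelial cells held 0 UMIs. No neighbours in this order differed beyond their counting intervals, and the interval of the mesothelial cells took in the level of neurons. The order is not matched by library: at the library mix of each class, neurons stood at 0.357 for mesothelial cells, 0.468 for fibroblasts, 0.487 for glia, 0.440 for endothelial cells and 0.379 for smooth muscle cells or pericytes. Npy, a transcript abundant in neurons, was used to gauge free neuronal RNA in these cells. Fibroblasts held 84 Npy UMIs, and at the neurons' ratio of Adcyap1r1 to Npy these would bring 1.18 Adcyap1r1 UMIs, against 11 counted (5.49 to 19.7). Glia held 146 Npy UMIs, which would bring 2.05, against 7 counted (2.81 to 14.4), 6 of them in the anterior library. By library (anterior, posterior, mixed), that ratio gave 0.318, 0.676 and 0.183 UMIs in fibroblasts. Counted were 5 (1.62 to 11.7), 3 (0.619 to 8.77) and 3 (0.619 to 8.77). In glia it gave 0.849, 0.977 and 0.229, against 6 (2.20 to 13.1), 1 (0.0253 to 5.57) and 0 (0 to 3.69) counted. The posterior fibroblast interval and the posterior and mixed glial intervals took in these values. The gauge uses the ratio of all neurons, in the anterior library 1.33 Adcyap1r1 UMIs per 100 Npy UMIs. Npy-low neurons of that library held 250 Adcyap1r1 and 274 Npy UMIs, so the gauge cannot cover free RNA from such neurons. The source of the UMIs was not tested.

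Most Vipr2 UMIs lay in fibroblast barcodes. The fibroblast class held 2, 4 and 1 Vipr2 UMIs in the anterior, posterior and mixed libraries, or 0.0796, 0.102 and 0.0264 UMIs per 10000, against 0, 1 and 0 UMIs in neurons. Over the libraries fibroblasts stood at 0.0686 (0.0276 to 0.141), and the other classes outside neurons held 0 UMIs. Their floors lay above that level, from 0.0761 in smooth muscle cells or pericytes upward, except in glia, whose interval reached 0.0443. A higher level in fibroblasts than in the other classes outside neurons was therefore not shown under this gate. Over all kept barcodes Vipr2 gave 18 UMIs in 15 of 7091. Of these, 12 barcodes with 15 UMIs were among 346 barcodes that lay outside the neuron gate, held at least 4 fibroblast markers and held more of them than of any other class (3.47%, 1.81 to 5.98, at a median depth of 5312 UMIs), against 3 of the 6745 others. By library they were 2 of 88 anterior, 9 of 169 posterior and 1 of 89 mixed fibroblast barcodes. This gate was not among the planned ones and differs from the class gate, under which 208 fibroblasts held 7 Vipr2 UMIs. The gene did not pass the filter in the class fit. Without the filter its adjusted p for fibroblasts against neurons was 1.52e-05 (edgeR, 13.3% of 21036 genes called higher), on 7 UMIs in fibroblasts and 1 UMI in neurons. Dropping the filter can itself lower p-values. In the Npy comparison it took the adjusted p of Vip from 0.114 to 2.48e-22 (edgeR), at log2 fold changes of -1.37 and -1.40. The unfiltered value of Vipr2 is therefore described and not taken as a test result.

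Vipr1 gave 3 UMIs in 3 of 7091 barcodes. The 2 in the posterior library came from barcodes whose most detected list was the epithelial one, and the 1 in the mixed library came from a macrophage. No class held enough of Vipr1 to test.

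**Figure D5:**
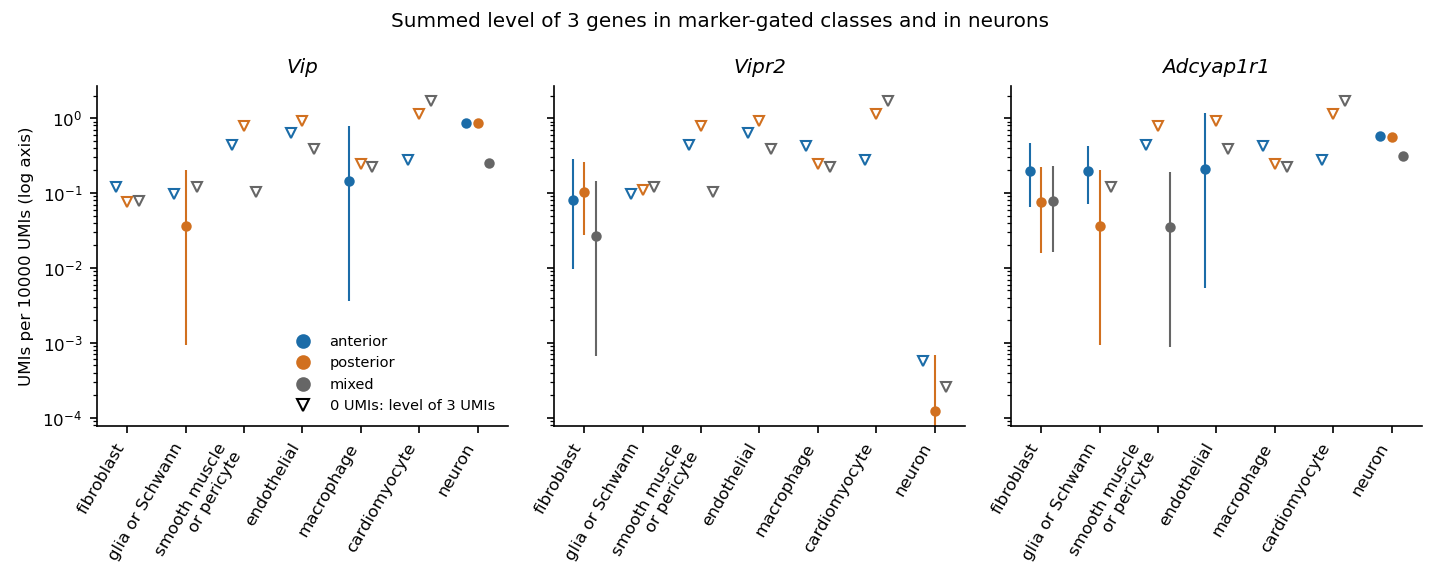
UMIs per 10000 (log axis) of Vip, Vipr2 and Adcyap1r1 summed over the marker-gated classes and, at the right of each panel, neurons of each library, with exact 95% Poisson intervals; open triangles mark sums of 0 UMIs, drawn at the level that 3 UMIs would give. Among sums above 0, Vip and Adcyap1r1 are highest in neurons of each library, and Vipr2 has UMIs in the fibroblasts of all 3 libraries and lies near 0.0001 in posterior neurons.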

How the data were processed

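The deposited matrices hold raw UMI counts per gene and barcode of 3 libraries made with the 10x Chromium 3′ V3 kit, per the labels' protocols; all values were whole numbers. Per the file headers the anterior and posterior matrices were written by Cell Ranger 6.1.2 and the mixed by 3.1.0, while the submitters' processing notes name Cell Ranger 7.1.0, Seurat 4.4.2 and mm10. The 30406 genes common to the 3 feature lists were tested. A small part of the counts lies outside them, 0.495%, 0.501% and 0.0592% of UMIs in the anterior, posterior and mixed libraries.

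Barcodes with at least 1000 UMIs, at least 500 genes and at most 20% mitochondrial UMIs were kept (2029 anterior, 2624 posterior, 2438 mixed). No doublet caller was run, so doublets of neurons with other cells remain, and leaving out neurons with 3 or more glial markers is an alternative. Each library was the replicate and the block: counts were summed per library and cell set, sums of at least 10 cells entered the class fit, and edgeR 4.0.16 (R 4.3.3; TMM, filterByExpr, quasi-likelihood test, Benjamini-Hochberg over all genes, threshold 0.05) was used, tested on simulated data. The cardiomyocyte sums come from the anterior and posterior libraries and the smooth muscle or pericyte sums from the anterior and mixed. Nothing states that the libraries come from separate animals. With library as a block, p-values weigh the difference between cell sets against how it varies between these libraries, a spread that may be technical. Poisson, Clopper-Pearson and conditional Poisson ratio intervals were computed with scipy 1.17.1.

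The 5 genes, the gene lists, the limits for Vip and Npy and the cell type markers were chosen with earlier results of these data known. Named genes were the 5 members, at most 4 called members of each list with the largest change, the 10 largest increases and 5 largest decreases in Vip-rich neurons, and the genes most like Vip (8) and Adcyap1r1 (5) by correlation, of which 1 is not reported here; further list members in brackets or in the plot were named after their values were seen. Alternatives were DESeq2 1.42.0, no scaling factors, no filter, no block, each library left out, other limits, deeper or thinned neurons, neurons without markers of other cells and other marker gates.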

Additional observations from a re-analysis of the deposited data

Results flagged for a closer look

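Adcyap1r1 went in different directions between libraries when Vip-rich neurons were set against other neurons. The difference, Vip-rich minus other, was 0.0189 UMIs per 10000 in the anterior library, -0.0078 in the posterior and 0.0484 in the mixed. Adcyap1 did so between Npy-low and Npy-high neurons: the difference, Npy-low minus Npy-high, was -0.000851 UMIs per 10000 in the anterior library, 0.01534 in the posterior and 0.01371 in the mixed. Neither difference between libraries was tested, since each region is 1 library, and the anterior value of Adcyap1 rests on 4 UMIs.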

How the results depend on the processing

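With 1 library per region, regions have no replicate, and Adcyap1, Vipr1 and Vipr2 rest on few UMIs. Library was the block in each comparison, since the sets compared come from the same libraries. Without this replicate block, 169 genes were higher and 13 lower in Vip-rich neurons, 324 higher and 307 lower in Npy-low neurons, Adcyap1r1 in Npy-low neurons was -0.39, and the adjusted p of Adcyap1r1 in cardiomyocytes was 0.0572. Counts of genes higher in Vip-rich neurons were 272 with Vip detected against not, 64 within neurons low in Nos1, 694 with a limit of 5 and 277 after thinning, and lower ones were 112 with Vip detected against not, 22 within neurons low in Nos1, 648 with a limit of 5, 133 with DESeq2 and 380 with no filter. Leaving out each library gave 273 to 651 higher and 114 to 664 lower genes in Vip-rich neurons, and 1202 to 1819 higher and 1266 to 1941 lower in Npy-low neurons. It gave log2 fold changes of 1.26 to 3.65 for Adcyap1 in Vip-rich neurons, and in Npy-low neurons -2.20 to -0.19 for Vip and -0.50 to -0.27 for Adcyap1r1. Adcyap1 in Vip-rich neurons was 2.84 with a limit of 5 and 2.77 with fewer than 3 glial markers. Vip in Npy-low neurons was -1.40 with no filter, where its adjusted p was 2.48e-22 against 0.114 with the filter (edgeR). The adjusted p of Adcyap1r1 was 0.0734 in cardiomyocytes and 0.0805 in endothelial cells with DESeq2, and 0.0511 in endothelial cells with no scaling factors. Leaving out the anterior or posterior library gave 0.0403 to 0.463 in cardiomyocytes, 0.0378 to 0.0545 in endothelial cells and 0.00229 to 0.105 in smooth muscle cells or pericytes. Allowing none of the 3 neuron markers left no value for Adcyap1r1 in any class. Vip stood at 0.842 UMIs per 10000 in anterior neurons of at least 20000 UMIs. With fewer than 3 glial markers it stood at 0.916, 0.904 and 0.274 in anterior, posterior and mixed neurons, and Adcyap1r1 at 0.578 in posterior ones. The share of Vip-rich neurons was 10.5%, 10.2% and 4.72% with any Vip UMI, 4.11%, 2.01% and 1.47% with a limit of 5, and 7.23% anterior and 4.64% posterior after thinning. Within neurons low in Nos1, Chgb (-0.39), Pcsk2 (-0.11), Pde3a (-0.49) and Ramp1 (-0.81) changed sign, and within Npy-high neurons Mucl1 did (0.48). A change of sign was counted whatever its p-value and is not read as an opposite effect. Leaving out neurons with 3 or more markers of fibroblasts, macrophages, epithelial or mesothelial cells gave 500 higher and 300 lower genes in Vip-rich neurons and 1860 higher and 1985 lower in Npy-low neurons. With no matching of library mix, the Vip level of neurons summed over the libraries was 2.12 times the floor of mesothelial cells, with the limit on small classes given above. The analyses within neurons low in Nos1, within Npy-high neurons, with up to 2 neuron markers, without neurons carrying markers of those 4 classes and at a matched library mix were chosen after seeing the data. The gate of at least 4 fibroblast markers used for Vipr2 was not planned either. The causes of these changes were not tested.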
